A study of Mus musculus with 12 samples.

Results

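The 58 genes described here encode enzymes that add methyl groups to histones or remove them, their relatives, and a few subunits of their complexes. They were picked by gene symbol from the 14143 genes of the table. The symbols cover the Ezh1, Ezh2, Eed and Suz12 core of the Polycomb repressive complex PRC2, and the KDM and JMJD families. They also cover the KMT, SETD, SMYD, NSD, SUV39H, EHMT, DOT1L and PRMT families, with Ash1l and Ash2l. The rule reads symbols and no expression value. Kdm5c, Kdm5d and Kdm6a were left out by the rule. All 58 carry protein-coding gene identifiers. The filter used for testing, an FPKM of at least 1 in at least 3 libraries, kept 57 of them. Kdm4d, an H3K9 demethylase, was the 1 member under it. Of the genes that belong to these families by name, Kmt2a, Kmt2c, Kmt2d, Smyd1, Nsd1, Prmt8, Kdm6b and Jmjd7 were not analysed here.

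Methyl groups on histone lysines mark chromatin states: H3K4 and H3K36 methylation go with active promoters and transcribed gene bodies, and H3K9, H3K27 and H4K20 methylation with silenced chromatin. Writers of the SET domain family and Dot1l add them, and the flavin-dependent Kdm1 and the Jumonji (JmjC) enzymes take them off, while PRMT enzymes methylate arginines. In mouse blood formation, PRC2, the MLL enzymes, Dot1l and Kdm1a are among the factors known to be needed for stem cells to persist or to mature.

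RNA was sequenced from hematopoietic stem cells (HSCs) of female C57BL/6J mice, sorted as lineage-negative, Sca-1+, c-kit+, CD48- and CD135- cells. The 4 groups, of 3 libraries each, were old and young My-HSCs, the CD150-high fraction termed myeloid-biased, and old and young Ly-HSCs, the CD150-low fraction termed lymphoid-biased. Old mice were 18 months of age, and young mice 8 to 10 weeks per the sample labels or 8 to 12 weeks per the protocol. The labels speak of 3 independent groups of mice, so the libraries are taken as pools of animals and p-values measure the spread between pools. The labels give no allele, transgene or agent for any group.

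Values are FPKM, a fragment count scaled to transcript length and to the mapped fragments of the library, as deposited, so levels can be set side by side between genes. Values of a group are given in the order of libraries 1, 2 and 3. Fold changes are differences of log2(FPKM + 1) from 1 limma model over the 12 libraries, given with their standard error, and they understate changes of low genes. A gene was called when its p, adjusted by the Benjamini-Hochberg method over all 10900 genes tested in the contrast, was under 0.05. Each group enters several of the contrasts, so results for 1 gene in contrasts that share a group are not independent. In bulk RNA, a smaller share of cells that express a gene and less of its RNA per cell cannot be told apart.

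Libraries differed in how completely they recorded genes. The read depth is unknown, the FPKM of a library summed to 211455 to 228391, and the share of genes listed at 0 ran from 12.1% in old My-HSC library 2 to 34.1% in young Ly-HSC library 1. Of the 58 members, 5, 1 and 1 were listed at 0 in young Ly-HSC libraries 1, 2 and 3, and at most 2 in any other library. The median SD of a member on the log2 scale was 0.25 in old Ly-HSCs, 0.59 in young Ly-HSCs, 0.17 in old My-HSCs and 0.26 in young My-HSCs. The same SD over all genes was 0.35, 0.68, 0.28 and 0.43 in that order of groups. Slamf1, which encodes the sort antigen CD150, stood at 15.0 to 35.3 FPKM in the 6 My-HSC libraries and at 1.39 to 8.33 FPKM in the 6 Ly-HSC libraries. Of 22 listed cell cycle genes, 20 had values, and they summed to 498 to 628 FPKM in old Ly-HSCs, 315 to 522 in young Ly-HSCs, 356 to 412 in old My-HSCs and 399 to 530 in young My-HSCs. Of 12 listed granulocyte genes only Prtn3, Itgam and Mmp9 had values, summing to 77.8 to 297 FPKM in old Ly-HSCs, 1.79 to 56.9 in young Ly-HSCs, 108 to 300.1 in old My-HSCs and 14.2 to 42.4 in young My-HSCs. The highest sums in either subset were in the old libraries numbered 1. The erythroid list, with 7 of 12 genes, ran over 24.0 to 111, 14.4 to 24.0, 13.7 to 85.2 and 9.51 to 34.8 FPKM in the same order of groups. The B lineage list (5 of 7 genes) summed to at most 26.0 FPKM in any library, the T and NK list (7 of 9) to at most 20.7 and the monocyte and macrophage list (7 of 8) to at most 49.1. The megakaryocyte and platelet list (6 of 8) was high in every library, at 219 to 286 FPKM. Within it, Vwf read 24.6 to 48.7 FPKM in My-HSCs and 0.143 to 7.66 in Ly-HSCs. Itga2b leaned the other way, at 18.5 to 37.2 FPKM in My-HSCs and 33.1 to 56.8 in Ly-HSCs. The part of these differences in the results below was not tested, except where the values without a library are given.

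Histone methylation enzymes were among the better expressed genes of HSCs. The median member ranked at the 79.3 percentile of all 14143 genes by mean FPKM over the 12 libraries, 51 of 58 members stood above the median gene, and 48 averaged at least 10 FPKM. Smyd2, a lysine methyltransferase of the SMYD family, had the highest mean at 90.0 FPKM, close to Setd2, which writes H3K36 trimethylation, at 89.1 FPKM. Their libraries differed in evenness. Setd2 read 80.9, 92.0 and 92.4 FPKM in old Ly-HSCs and 92.9, 88.0 and 111 FPKM in young Ly-HSCs. Smyd2 read 55.6, 77.8 and 98.6 FPKM in old Ly-HSCs and 160.3, 103 and 39.1 FPKM in young Ly-HSCs, a wider range than in any other group. Ash1l, a writer of H3K36 dimethylation, followed at 66.2 FPKM, then Kmt2e at 63.0 and Jmjd1c, of the H3K9 demethylase family, at 63.0 FPKM.

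At the low end, Kdm4d averaged 0.388 FPKM and was listed at 0 in 6 of 12 libraries, among them every young Ly-HSC library. Suv39h2, an H3K9 trimethylase, averaged 3.08 FPKM, Setd4, a SET domain protein, 3.50 FPKM, and Prmt6, an arginine methyltransferase, 5.20 FPKM. The other members were higher, and 52 of 58 were above 0 in every library. The most even member was Kmt5b, which writes H4K20 dimethylation and stayed between 16.7 and 20.3 FPKM in all 12 libraries (SD 0.094 on the log2 scale). Kdm3b, an H3K9 demethylase, ranged from 45.5 to 66.7 FPKM (SD 0.14). Kdm8, a JmjC protein, was the least even, from 0 to 50.2 FPKM (SD 1.44).

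**Figure D1:**
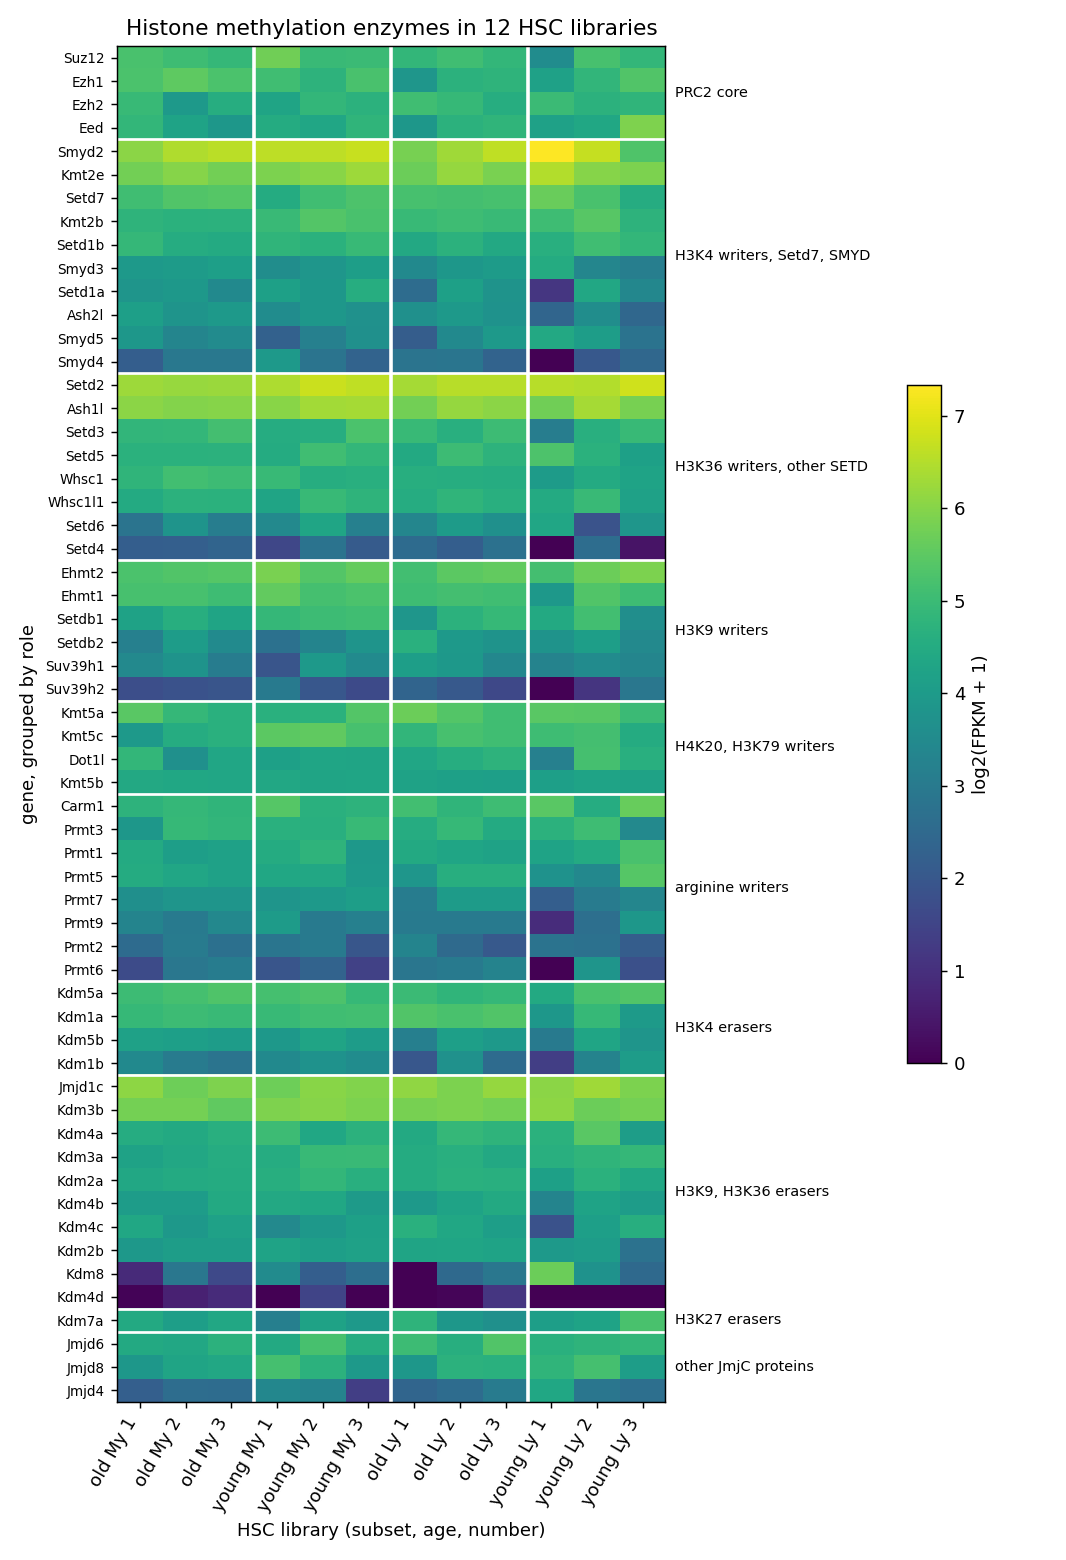
Heat map of log2(FPKM + 1) for all 58 genes, in rows grouped by role, in the 12 libraries, in columns with old before young in each subset. Rows are mostly of one shade across columns, as in Setd2 and Kmt5b. Among the darkest cells, at or near 0, are several in the row of Kdm4d, the 5 genes listed at 0 in young Ly-HSC library 1, and Kdm8 in old Ly-HSC library 1.

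The promoters of the members were GC-rich. RefSeq windows of 250 bases before the gene start (GRCm38.p6) were found for 45 members, in 58 windows. Their median GC content was 61.8% and their median number of CpG dinucleotides 19.5, against 52.4% and 6.0 over all 32851 windows of the table. Those windows cover 27025 genes and were not selected for expression in HSCs. Members were not compared with genes of like level, so these shares are not shown to be particular to them. A GC box (GGGCGG, searched on both strands) lay in 62.1% of member windows and 32.7% of all windows, and a CCAAT box (CCAAT, both strands) in 46.6% and 33.8%. The E-box CACGTG lay in 8.62% of member windows and 6.02% of all, and TATAAA in 1.72% and 12.4%. None of the 4 motifs contains another, and a match describes letters only. The promoters of 3 genes are shown because these genes, Kdm1a, Kmt5c and Ezh1, had the smallest p among members in the comparisons of age in Ly-HSCs, age in My-HSCs and subset in old mice. Kdm1a lies on the minus strand of chromosome 4 (136550540 to 136602723, GENCODE M21 on GRCm38), with its window at chr4:136602724-136602973. Kmt5c lies on the plus strand of chromosome 7 (4740115 to 4747514), with its window at chr7:4739877-4740126. Ezh1 lies on the minus strand of chromosome 11 (101191115 to 101226463), with its window at chr11:101226464-101226713. The sequences are written 5′ to 3′ along the gene's strand, and capitals mark a CCAAT box on either strand.
Kdm1a promoter: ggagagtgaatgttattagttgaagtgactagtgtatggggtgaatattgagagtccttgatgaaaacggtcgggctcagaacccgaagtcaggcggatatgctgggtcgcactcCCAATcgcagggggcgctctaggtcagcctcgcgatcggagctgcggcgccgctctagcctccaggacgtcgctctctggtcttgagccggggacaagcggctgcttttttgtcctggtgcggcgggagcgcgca
Kmt5c promoter: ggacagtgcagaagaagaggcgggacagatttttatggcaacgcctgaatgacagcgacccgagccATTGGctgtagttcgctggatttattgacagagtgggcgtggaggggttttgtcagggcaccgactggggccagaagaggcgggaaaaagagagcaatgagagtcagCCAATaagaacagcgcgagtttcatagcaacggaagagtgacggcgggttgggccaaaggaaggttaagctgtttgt
Ezh1 promoter: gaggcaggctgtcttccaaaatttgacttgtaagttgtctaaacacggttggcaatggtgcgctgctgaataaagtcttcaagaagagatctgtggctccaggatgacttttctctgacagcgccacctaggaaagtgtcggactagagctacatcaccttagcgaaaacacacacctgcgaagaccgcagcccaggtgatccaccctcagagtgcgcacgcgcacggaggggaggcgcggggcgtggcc
Capitals stand once in the Kdm1a window, in the forward sense, and at 2 places in the Kmt5c window, once as ATTGG and once as CCAAT. The Ezh1 window holds no match to any of the 4 motifs.

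With age in Ly-HSCs, no member passed the test. Kdm1a (LSD1), which removes H3K4 mono- and dimethylation and is best known as part of the CoREST repressor, came nearest. It read 39.4, 36.1 and 39.3 FPKM in old Ly-HSCs, against 13.8, 29.4 and 15.1 FPKM in young Ly-HSCs. Every old library was above every young one, and the young libraries 1 and 3 were the low ones, which are also the libraries with the most genes at 0. The fold change was 1.02 ± 0.26 on the log2 scale (limma, adjusted p = 0.13; 95% interval 0.45 to 1.59). Without young Ly-HSC library 2, the young library nearest to the old ones, it was 1.35 and passed (limma, adjusted p = 0.0117). Over the 20 alternatives tried it stayed between 0.81 and 1.35, with adjusted p from 0.0117 to 0.399 (limma).

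Ash2l, a core subunit that H3K4 writers of the COMPASS family need for activity, followed Kdm1a. It read 11.8, 14.2 and 12.4 FPKM in old Ly-HSCs, against 4.29, 11.02 and 4.47 FPKM in young Ly-HSCs, again with the groups apart and young libraries 1 and 3 low (0.97 ± 0.37, limma, adjusted p = 0.294). Setd4 read 4.89, 3.52 and 5.60 FPKM in old Ly-HSCs, against 0, 5.10 and 0.318 FPKM in young Ly-HSCs, so that young library 2 stood among the old ones (1.48 ± 0.64, limma, adjusted p = 0.343). It too passed without young library 2, at 2.29 (limma, adjusted p = 0.0412), but without young library 1, where it was listed at 0, the difference was 0.98 (limma, adjusted p = 0.52). Over the 19 alternatives it ran from 0.72 to 2.96. Kdm8 had the widest difference downward. It read 0, 4.63 and 6.47 FPKM in old Ly-HSCs, against 50.2, 12.2 and 4.71 FPKM in young Ly-HSCs, groups that overlap and whose young mean rests on library 1 (-2.17 ± 0.90, limma, adjusted p = 0.33). Without old library 1 the difference was -1.28, without young library 1 it was -1.32, and without the libraries numbered 1 of all groups -0.42. Kdm2b, an H3K36 demethylase that brings a PRC1 complex to CpG islands, read 18.3, 18.7 and 17.9 FPKM in old Ly-HSCs, against 14.7, 15.7 and 5.74 FPKM in young Ly-HSCs. Whsc1 (NSD2), a writer of H3K36 dimethylation, read 23.3, 22.9 and 22.5 FPKM in old Ly-HSCs, against 15.2, 21.2 and 18.1 FPKM in young Ly-HSCs. Both had every old library above every young one, by narrow gaps.

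Counted over the members, the shares that passed or lay apart in this comparison were below those of all genes. Each of these shares rests on at most 4 members, and the difference from all genes was not tested. At an adjusted p under 0.05, 0 of 57 members were called, against 38 of all genes (0.349%, limma). The count over all genes ran from 7 to 223 on leaving out single libraries, while that of members reached at most 2. At an unadjusted p under 0.05 it was 4 members (7.02%: Kdm1a, Ash2l, Kdm8 and Setd4) against 13.3% of all genes. The old libraries lay wholly above the young ones for 4 members (7.02%: Ash2l, Kdm1a, Kdm2b and Whsc1) against 11.5% of all genes, and wholly below for 0 members against 4.5% of all genes. The median fold change of members was 0.08, against 0.18 over all genes, with 35 members higher and 22 lower. Under quantile normalization the median of all genes was -0.01 and that of the members 0.08, and under median-of-ratios scaling they were 0.12 and 0.01. The 95% interval lay within a 2-fold change in either direction for 26 members (45.6%), against 23.1% of all genes. The median half-width of the interval was 0.795 for members and 1.027 over all genes on the log2 scale. Members ranked high in level, and no comparison with genes of like level was made, here or for the counts, medians and interval shares below.

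By role, 5 of 6 H3K9 writers had higher means in old Ly-HSCs, with a median of 0.34, and none was called. Over all genes, 62.4% were higher in this contrast, and 49.4% under quantile normalization, and the counts by role below stand against that background. Ehmt2 (G9a), which writes H3K9 dimethylation, went the other way, with 33.6, 44.2 and 47.0 FPKM in old Ly-HSCs against 34.4, 50.9 and 58.2 FPKM in young Ly-HSCs. Suv39h1, which trimethylates H3K9 in heterochromatin, read 16.1, 14.1 and 9.43 FPKM in old Ly-HSCs, against 8.77, 10.7 and 9.19 FPKM in young Ly-HSCs. Setdb1, the H3K9 writer that silences endogenous retroviruses, read 13.5, 25.3 and 29.3 FPKM in old Ly-HSCs, against 21.0, 33.5 and 11.3 FPKM in young Ly-HSCs. Old and young libraries overlap in all 3 of these genes. Of the 8 H3K36 writers and other SETD proteins, 7 were higher and 1 lower (median 0.21), and of the 8 arginine methyltransferases 6 were higher and 2 lower (median 0.21). Prmt5, which makes symmetric dimethylarginine, read 13.6, 23.2 and 23.2 FPKM in old Ly-HSCs against 12.3, 9.73 and 41.0 FPKM in young Ly-HSCs, and Prmt1, the main asymmetric enzyme, 20.8, 19.0 and 17.7 FPKM against 18.3, 21.5 and 36.1 FPKM. In both, young library 3 was the highest of the 6.

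**Figure D2:**
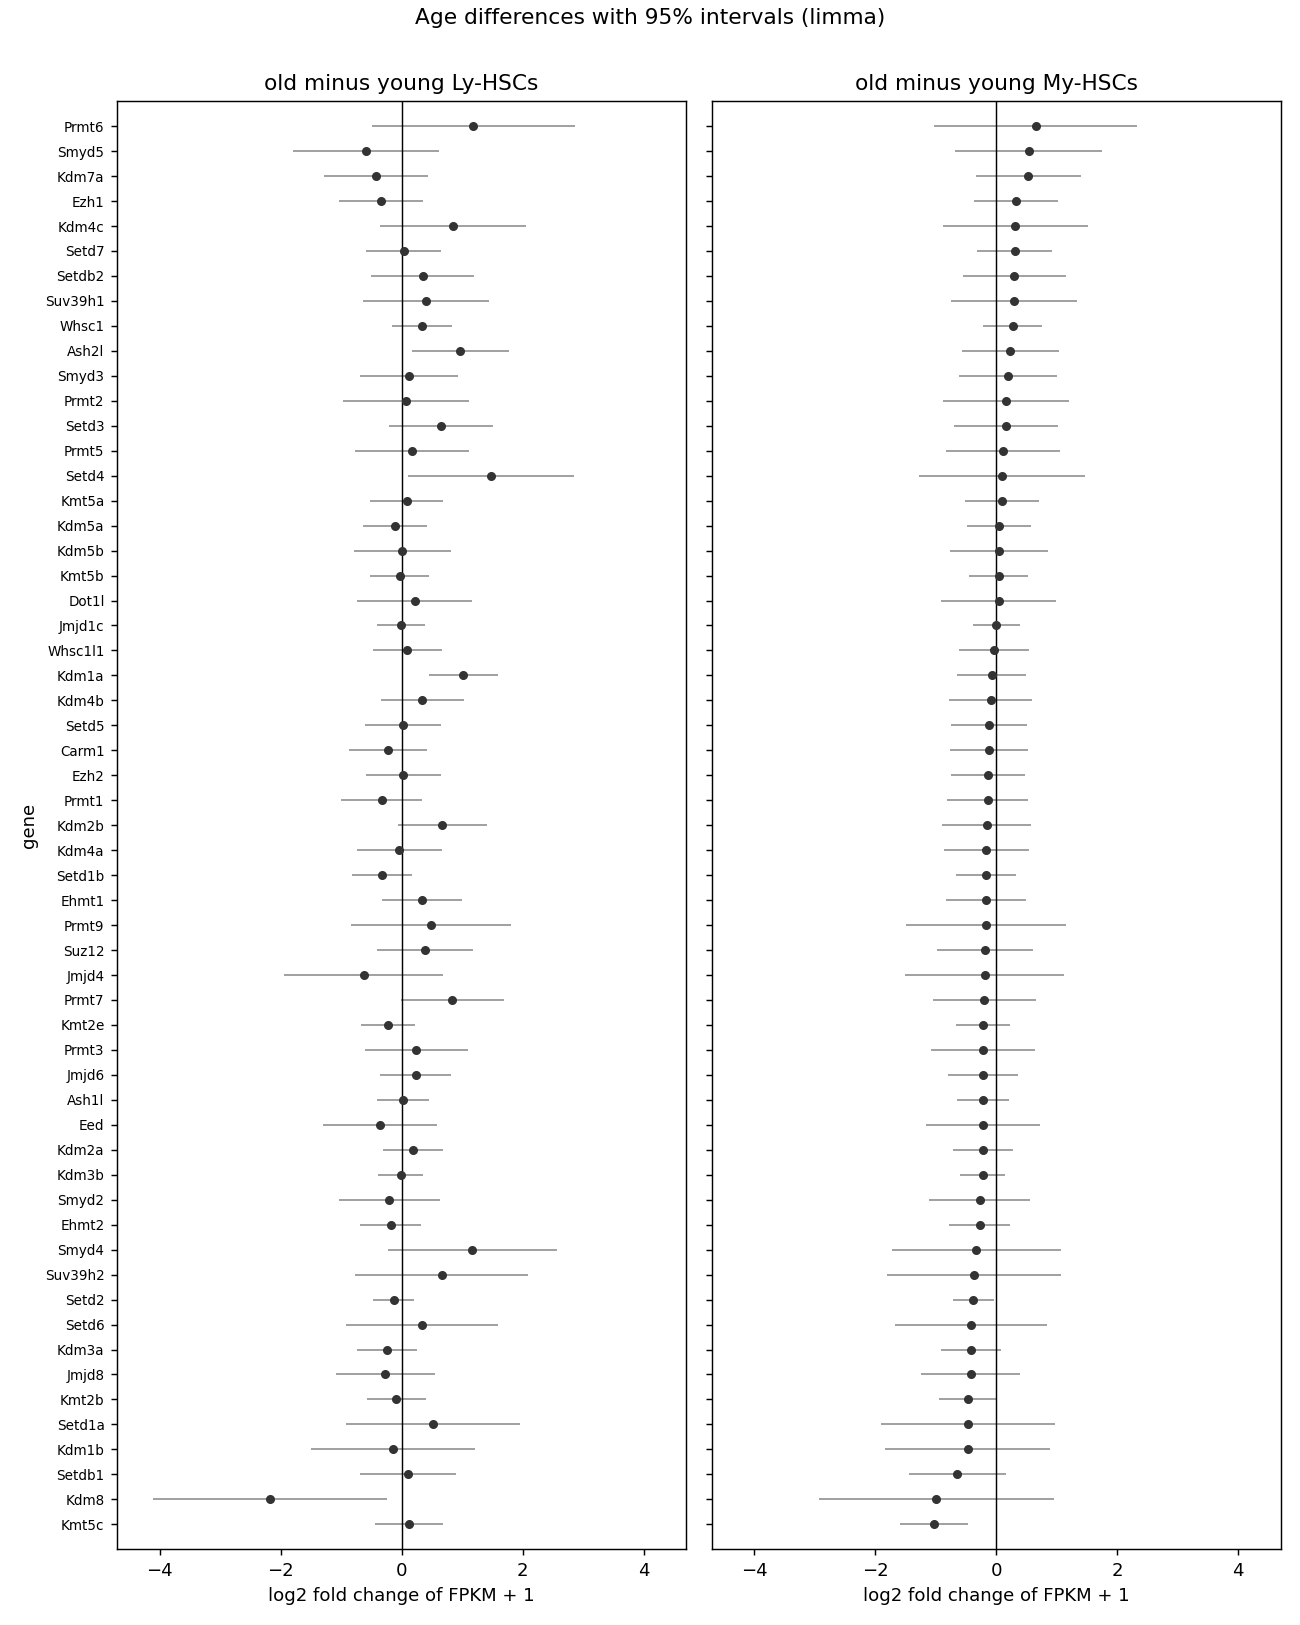
Old minus young differences of log2(FPKM + 1) for the 57 tested genes in Ly-HSCs and in My-HSCs, as points with 95% intervals from limma. Intervals are wide against most differences. Those of Kdm1a, Ash2l, Setd4 and Kdm8 in Ly-HSCs and of Kmt5c and Setd2 in My-HSCs lie clear of 0, and none of these passed adjustment over all genes.

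With age in My-HSCs, no member passed either, and the lead gene was another one. Kmt5c (SUV420H2), which writes H4K20 trimethylation at constitutive heterochromatin, read 14.4, 22.2 and 24.1 FPKM in old My-HSCs, against 43.7, 45.3 and 35.8 FPKM in young My-HSCs. Every old library was under every young one (-1.03 ± 0.26, limma, adjusted p = 0.204; 95% interval -1.59 to -0.47). Over the 20 alternatives the difference stayed between -1.17 and -0.77, with adjusted p from 0.0802 to 0.712 (limma). Kmt5c was the 1 member of its role with a difference of that size: Kmt5b read 20.3, 19.6 and 19.1 FPKM in old My-HSCs and 20.2, 18.3 and 18.8 FPKM in young My-HSCs. Kmt5a, the writer of H4K20 monomethylation, read 43.2, 28.8 and 24.0 FPKM in old My-HSCs and 24.1, 24.95 and 40.3 FPKM in young My-HSCs, overlapping. Dot1l, the H3K79 methyltransferase, read 27.8, 11.9 and 19.2 FPKM in old My-HSCs and 17.0, 18.7 and 18.5 FPKM in young My-HSCs, with the old libraries on both sides of the young.

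Enzymes of H3K36, H3K4 and H3K9 methylation came next. Setd2 read 75.3, 72.5 and 74.0 FPKM in old My-HSCs, against 85.3, 106 and 98.3 FPKM in young My-HSCs, a small difference with tight old libraries (-0.38 ± 0.16, limma, adjusted p = 0.604). Kmt2b (MLL2), an H3K4 writer at CpG-rich promoters, read 26.5, 24.5 and 25.4 FPKM in old My-HSCs, against 30.4, 40.0 and 36.5 FPKM in young My-HSCs (-0.46 ± 0.22, limma, adjusted p = 0.725). Kdm3a, which removes H3K9 mono- and dimethylation, read 17.7, 20.2 and 22.3 FPKM in old My-HSCs, against 22.1, 29.6 and 30.1 FPKM in young My-HSCs, overlapping by 1 library (-0.42 ± 0.23, limma, adjusted p = 0.795). Setdb1 read 17.8, 23.2 and 18.3 FPKM in old My-HSCs, against 28.7, 31.9 and 33.0 FPKM in young My-HSCs, apart in every library (-0.64 ± 0.37, limma, adjusted p = 0.82). Kdm1a, the lead gene in Ly-HSCs, read 29.0, 31.5 and 30.3 FPKM in old My-HSCs and 29.4, 33.0 and 33.4 FPKM in young My-HSCs.

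Counts in My-HSCs leaned to lower values. Members called at an adjusted p under 0.05 were 0 of 57, against 23 of all genes (0.211%, limma), and at an unadjusted p under 0.05 they were 2 (3.51%: Kmt5c and Setd2) against 7.21%. Old libraries lay wholly below the young ones for 9 members (15.8%), against 7.8% of all genes, and wholly above for 1 member (1.75%, Ezh1), against 11.3% of all genes. The 9 were Kdm2a, Kdm2b, Kdm3b, Kmt2b, Kmt5c, Prmt7, Setd2, Setdb1 and Smyd2, demethylases and writers of several marks. Some of these gaps were close to ties. The highest old and lowest young My-HSC libraries read 13.160 and 13.161 FPKM in Prmt7, 16.09 and 16.24 in Kdm2b, and 94.9 and 96.2 in Smyd2. The Smyd2 difference was -0.27, and -0.12 without old My-HSC library 1. Ezh1 was close to a tie as well, with its lowest old library at 36.97 FPKM and its highest young library at 36.55 FPKM. The Ezh1 difference was 0.33, and 0.19 without young My-HSC library 2. Kmt2b, Kmt5c, Setd2 and Setdb1, with values given above, lay further apart. The median fold change of members was -0.15, against 0.07 over all genes, with 21 members higher and 36 lower. The members' median was -0.17 under both other scalings. Summed over the 58 genes, FPKM came to 1358, 1378 and 1376 in old My-HSCs and to 1476, 1550.3 and 1540.2 in young My-HSCs, with no overlap. As a share of the library's FPKM that was 0.622%, 0.621% and 0.622% against 0.681%, 0.724% and 0.728%. In Ly-HSCs the sums overlapped, at 1323, 1498 and 1484 FPKM in old against 1431, 1585 and 1404 FPKM in young libraries. Such a sum is led by the highest genes, such as Setd2 and Smyd2. Fewer genes were listed at 0 in old My-HSCs (18.2%, 12.1% and 12.2%) than in young My-HSCs (26.1%, 20.3% and 19.3%). The part of this in the lower values was not tested. Members were not compared with genes of like level, so the lean to lower values is not shown to be particular to them. The 95% interval lay within a 2-fold change for 29 members (50.9%), against 25.9% of all genes.

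Averaged over the subsets, age gave 0 called members of 57, against 92 called genes (0.844%, limma), and 5 members (8.77%) at an unadjusted p under 0.05, against 14.7% of all genes. These 5 were Kdm1a (0.47 ± 0.19), Kdm8 (-1.58 ± 0.64, and -0.29 without the libraries numbered 1), Kmt5c (-0.45 ± 0.18), Ash2l (0.60 ± 0.26) and Setd2 (-0.25 ± 0.11), with adjusted p from 0.256 to 0.314 (limma). Without young Ly-HSC library 2, Kdm1a passed here too, at 0.64 (limma, adjusted p = 0.0432). Over the 20 alternatives its averaged difference ran from 0.35 to 0.64, with adjusted p from 0.0432 to 0.473 (limma). The interval of this averaged difference lay within a 2-fold change for 44 members (77.2%), against 46.5% of all genes.

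**Figure D3:**
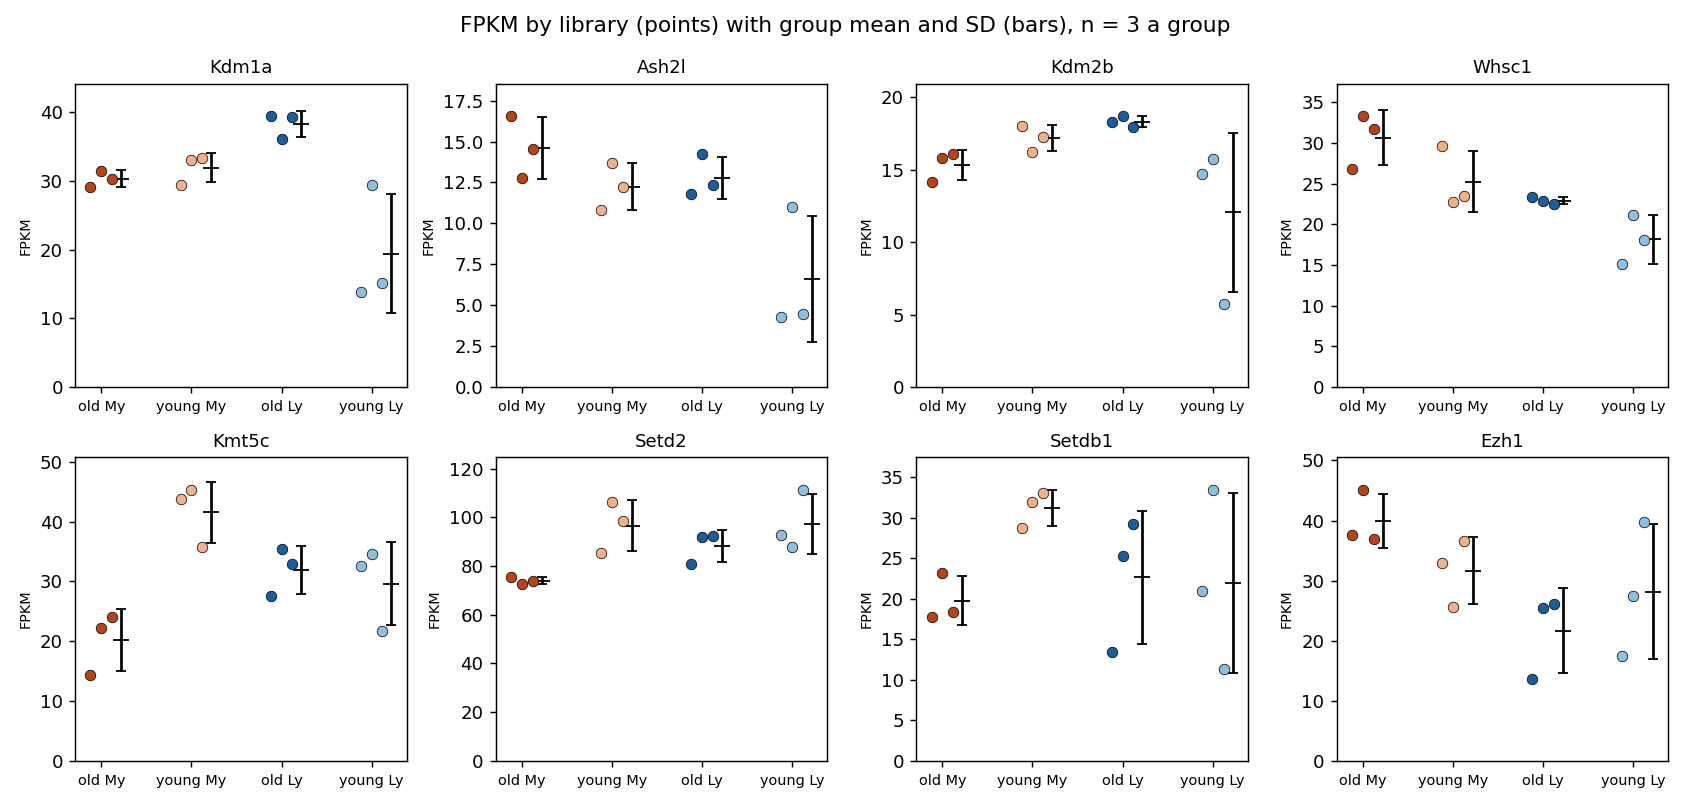
FPKM of named members in each library (points) with the mean and SD of each group of 3 libraries (bars), old before young in each subset. Kdm1a is low in young Ly-HSC libraries 1 and 3 (13.8 and 15.1 FPKM), and Kmt5c in old My-HSCs lies at 14.4 to 24.1 FPKM, under all libraries of the other groups except 1 of young Ly-HSCs at 21.6 FPKM.

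Among young mice no member separated My-HSCs from Ly-HSCs by the test, and the members with the smallest p were low in young Ly-HSC libraries 1 and 3 or in 1 of them. Kdm1a was apart in every library, with the 29.4 to 33.4 FPKM of young My-HSCs just reaching over the 29.4 FPKM of young Ly-HSC library 2 (0.77 ± 0.26, limma, adjusted p = 0.237). Without that library the difference was 1.09 and passed (limma, adjusted p = 0.0261). Prmt7, which monomethylates arginine, read 13.2, 14.4 and 16.1 FPKM in young My-HSCs, against 3.56, 7.21 and 9.39 FPKM in young Ly-HSCs, apart in every library (1.09 ± 0.39, limma, adjusted p = 0.256). Ash2l read 10.8, 13.7 and 12.2 FPKM in young My-HSCs, against the 4.29, 11.02 and 4.47 FPKM of young Ly-HSCs, overlapping by 1 library (0.91 ± 0.37, limma, adjusted p = 0.298). Smyd4, of the SMYD family, read 14.2, 6.04 and 4.04 FPKM in young My-HSCs and 0, 3.08 and 4.50 FPKM in young Ly-HSCs, also overlapping (1.53 ± 0.65, limma, adjusted p = 0.313). Without young Ly-HSC library 1, where it was listed at 0, the difference was 0.78, and over the 20 alternatives it ran from 0.33 to 2.65.

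No member of 57 was called in young mice, against 13 of all genes (0.119%, limma). At an unadjusted p under 0.05 there were 4 members (7.02%: Kdm1a, Prmt7, Ash2l and Smyd4), against 13.8% of all genes. My-HSC libraries lay wholly above Ly-HSC libraries for 6 members (10.5%), against 8.97% of all genes, and wholly below for 0 members, against 4.41%. The 6 were Kdm1a, Kdm2b, Kmt5b, Kmt5c, Prmt7 and Whsc1. The median was 0.11 for members and 0.13 over all genes, and the 95% interval lay within a 2-fold change for 24 members (42.1%), against 23.4%. All 4 H3K4 demethylases were higher in young My-HSCs (median 0.52), none called, in a contrast in which 59.2% of all genes were higher: Kdm5a read 34.7, 38.2 and 29.4 FPKM in young My-HSCs against 21.1, 36.1 and 39.2 FPKM in young Ly-HSCs, and Kdm5b 14.0, 18.4 and 15.6 FPKM against 7.18, 19.0 and 13.3 FPKM, both overlapping.

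In old mice no member passed the test between the subsets, and Ezh1 had the smallest p. Ezh1, the catalytic subunit of PRC2 that is found mainly in resting cells, read 37.6, 45.1 and 37.0 FPKM in old My-HSCs, against 13.6, 25.5 and 26.0 FPKM in old Ly-HSCs. Every My-HSC library was above every Ly-HSC library (0.90 ± 0.32, limma, adjusted p = 0.876; 95% interval 0.20 to 1.59). Over the 21 alternatives it stayed between 0.61 and 1.05, with adjusted p from 0.114 to 1.0 (limma). Kmt5c, at the 14.4, 22.2 and 24.1 FPKM of old My-HSCs, lay under the 27.5, 35.4 and 32.9 FPKM of old Ly-HSCs in every library (-0.66 ± 0.26, limma, adjusted p = 1.0). Whsc1 read 26.8, 33.3 and 31.8 FPKM in old My-HSCs, against the 23.3, 22.9 and 22.5 FPKM of old Ly-HSCs, apart in every library (0.40 ± 0.23, limma, adjusted p = 1.0). Jmjd6, a JmjC hydroxylase described as acting on proteins and arginines, read 20.9, 20.1 and 25.1 FPKM in old My-HSCs, against 31.6, 23.3 and 39.6 FPKM in old Ly-HSCs, overlapping by 1 library (-0.47 ± 0.27, limma, adjusted p = 1.0; -0.30 without old Ly-HSC library 3).

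Called members in old mice were 0 of 57, against 3 of all genes (0.0275%, limma), so few genes of any kind passed with 1 spread shared by the groups. With 1 weight per group, 69 genes were called. Members called stayed at 0, with 5 at an unadjusted p under 0.05 and a smallest adjusted p of 0.114 (limma). Old Ly-HSC and old My-HSC libraries of the same number deviated together, and with the number as a block within each age the count over all genes was 0 and that of members 0. At an unadjusted p under 0.05 there were 2 members (3.51%: Ezh1 and Kmt5c), against 4.03% of all genes. My-HSC libraries lay wholly above for 4 members (7.02%: Ezh1, Kdm5a, Kmt5b and Whsc1), against 9.19% of all genes, and wholly below for 5 (8.77%: Kdm1a, Kdm2b, Kmt2b, Kmt5c and Setd2), against 7.53%. Of the 9 tested H3K9 and H3K36 demethylases, 8 were lower and 1 higher, by at most 0.24 on the log2 scale, with a median of -0.13. Over all genes, 5236 of 10900 were lower in this contrast. Roles went both ways: 5 of 6 H3K9 methyltransferases were lower, and 8 of 10 H3K4 writers with Setd7 and SMYD proteins were higher. The PRC2 core had 2 higher and 2 lower. Members had a median of -0.06, against 0.02 over all genes. Their 95% interval lay within a 2-fold change for 33 members (57.9%), against 28.2% of all genes.

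Within PRC2, the ratio of the 2 alternative catalytic subunits was also compared, a measure chosen after the values had been seen. The Ezh1 level over the Ezh2 level was 1.27, 3.11 and 1.64 in old My-HSCs, against 0.409, 0.870 and 1.14 in old Ly-HSCs. All 3 ratios were higher in old My-HSCs, by 1.33 on the log2 scale (two-sided exact permutation test, p = 0.1, the smallest that 3 against 3 libraries can give). That test takes the libraries as independent, while old libraries of the same number deviated together. Paired by number, the 3 differences were 1.64, 1.84 and 0.52 (two-sided exact permutation test of signs, p = 0.25, the smallest that 3 pairs can give). In young mice they overlapped, at 1.78, 0.924 and 1.45 in My-HSCs and 0.565, 1.09 and 1.48 in Ly-HSCs (exact permutation p = 0.5). Ezh2, the subunit of dividing cells, read 29.5, 14.5 and 22.5 FPKM in old My-HSCs and 33.1, 29.3 and 22.8 FPKM in old Ly-HSCs. Beside this, the listed cell cycle genes summed to 356 to 412 FPKM in old My-HSCs and to 498 to 628 FPKM in old Ly-HSCs, and their part in the ratio was not tested. The scaffolds of the complex varied more between libraries than between groups: Eed read 28.1, 18.0 and 13.7 FPKM in old My-HSCs and 13.8, 25.2 and 26.8 FPKM in old Ly-HSCs, and Suz12 36.6, 32.2 and 28.4 FPKM in old My-HSCs and 28.1, 32.7 and 27.7 FPKM in old Ly-HSCs.

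**Figure D4:**
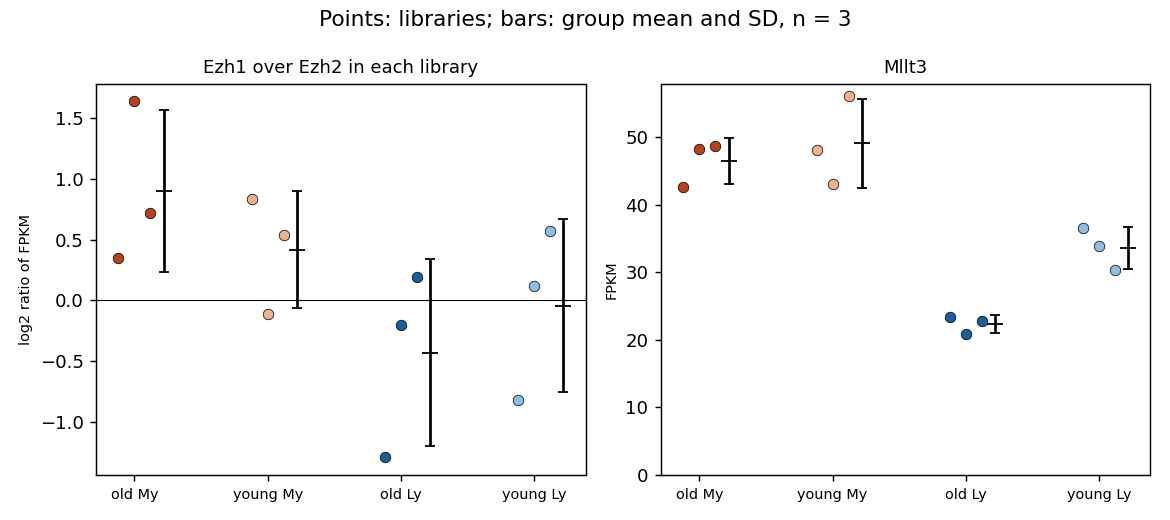
Left, the log2 ratio of Ezh1 to Ezh2 FPKM in each library; right, Mllt3 FPKM in each library; points are libraries and bars the mean and SD of 3, with old before young in each subset. The ratios in old My-HSCs lie above those in old Ly-HSCs by 1.33 in the mean, and Mllt3 lies at 42.6 to 56.1 FPKM in My-HSCs and at 20.9 to 36.6 FPKM in Ly-HSCs.

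Averaged over the ages, My-HSCs against Ly-HSCs gave 0 called members of 57, against 45 called genes (0.413%, limma), and 2 members (3.51%) at an unadjusted p under 0.05, against 11.2% of all genes. These were Whsc1 (0.43 ± 0.16, limma, adjusted p = 0.326) and Ezh1 (0.56 ± 0.23, limma, adjusted p = 0.367). Ash2l followed at 0.54 ± 0.26 and Prmt7 at 0.57 ± 0.28. For 42 members (73.7%) the 95% interval lay within a 2-fold change, against 47.1% of all genes.

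Whether the age difference itself differed between the subsets was tested as the interaction, the My-HSC difference less the Ly-HSC difference. No member was called, as was no gene (0.0%, limma), and 2 members (3.51%) had an unadjusted p under 0.05, against 5.65% of all genes. Kmt5c gave -1.16 ± 0.37 (limma, adjusted p = 0.838) and Kdm1a -1.10 ± 0.37 (limma, adjusted p = 0.843). Kmt5c ran at 27.5, 35.4 and 32.9 FPKM in old against 32.6, 34.6 and 21.6 FPKM in young Ly-HSCs, groups that overlap, while its My-HSC groups did not. Kdm1a ran the other way round, apart in Ly-HSCs and overlapping in My-HSCs. Prmt7 (-1.03 ± 0.56) and Kdm2b (-0.83 ± 0.48, and -0.41 without young Ly-HSC library 3) followed. The median interaction was -0.16 for members and -0.12 over all genes, with 39 of 57 members and 6239 of 10900 genes on the negative side.

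Remaining key members showed overlapping groups in both age comparisons. Setd1a, an H3K4 writer of the COMPASS family, read 5.01, 17.0 and 12.7 FPKM in old Ly-HSCs and 1.26, 20.02 and 9.59 FPKM in young Ly-HSCs. Kdm4a, a demethylase of H3K9 and H3K36, read 20.8, 28.3 and 26.5 FPKM in old Ly-HSCs and 24.6, 43.1 and 15.8 FPKM in young Ly-HSCs. Carm1, an arginine methyltransferase that acts with transcriptional coactivators, read 25.5, 28.5 and 27.02 FPKM in old My-HSCs and 40.9, 24.3 and 25.7 FPKM in young My-HSCs. Old and young libraries overlap in each of these. Ash1l and Jmjd1c were more even: Ash1l read 65.8, 62.1 and 63.4 FPKM in old My-HSCs and 64.1, 78.9 and 80.9 FPKM in young My-HSCs, and Jmjd1c 66.8, 51.6 and 59.7 FPKM against 52.0, 64.2 and 61.0 FPKM.

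Proteins that work in complexes with these enzymes were read in the same way, from 8 lists of 75 genes. Of these, 67 had values and 66 were tested: PRC1 and PRC2 accessory subunits, COMPASS and DOT1L partners, the KDM1A complex, H3K9 readers, PRMT cofactors and further JmjC demethylases. In the average over ages of My-HSCs against Ly-HSCs, 1 partner of 66 was called (1.52%, beside 0.413% of all genes), and in the other 6 contrasts 0 were; at an unadjusted p under 0.05 the 7 contrasts held 1 to 7 partners (1.52% to 10.6%), against 4.03% to 14.7% of all genes. Mllt3 (AF9), a reader of acetylated histones that works with Dot1l and the elongation complex, was that gene. It read 42.6, 48.2 and 48.6 FPKM in old My-HSCs, against 23.4, 20.9 and 22.8 FPKM in old Ly-HSCs, and 48.1, 43.1 and 56.1 FPKM in young My-HSCs, against 36.6, 33.9 and 30.3 FPKM in young Ly-HSCs. Every My-HSC library was above every Ly-HSC library at both ages. Mllt3 was 0.78 ± 0.14 higher in My-HSCs on the log2 scale (limma, adjusted p = 0.0267). The call was lost with the replicate number as a block within each age (adjusted p = 0.121, limma) or across all groups (adjusted p = 0.0655, limma), and on leaving out any old Ly-HSC library, young My-HSC library 1 or 3, or old My-HSC library 2 or 3, with adjusted p from 0.0511 to 0.118, or the 4 libraries numbered 1 (adjusted p = 0.0604, limma). Within old mice the difference was 1.02 ± 0.19 (limma, adjusted p = 0.103), which passed with no filter on low values (adjusted p = 0.0145, limma) and with 1 weight per group (adjusted p = 0.00654, limma), and within young mice 0.53 ± 0.19 (limma, adjusted p = 0.25). Mllt3 also stands on the list of HSC identity genes, of which 11 of 14 had values and summed to 574 to 639 FPKM in old My-HSCs, 403 to 456 in old Ly-HSCs, 592 to 624 in young My-HSCs and 440 to 580.4 in young Ly-HSCs. That sum includes Mllt3 itself and Slamf1, the gene of the sort antigen CD150, so it is independent of neither.

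The partners nearest to the threshold otherwise did not pass. Btg2, an antiproliferative protein that binds Prmt1, read 77.3, 66.2 and 77.5 FPKM in old My-HSCs, against 15.9, 17.9 and 41.3 FPKM in young My-HSCs, apart in every library (1.65 ± 0.42, limma, adjusted p = 0.204). With 1 variance weight per group it passed (adjusted p = 0.0286, limma). Rbbp7, a histone chaperone in PRC2 and other complexes, read 124, 96.5 and 92.0 FPKM in old Ly-HSCs, against 71.3, 81.7 and 59.3 FPKM in young Ly-HSCs (0.55 ± 0.17, limma, adjusted p = 0.197). Its close relative Rbbp4 read 23.8, 26.0 and 22.4 FPKM in old Ly-HSCs against 12.3, 17.9 and 20.2 FPKM in young Ly-HSCs, and 21.9, 21.5 and 26.7 FPKM in old My-HSCs against 9.59, 17.6 and 17.3 FPKM in young My-HSCs. In both subsets every old library was above every young one (0.59 ± 0.21 over the subsets, limma, adjusted p = 0.209). Cbx6, a PRC1 reader of H3K27 methylation, read 52.4, 36.03 and 40.8 FPKM in young My-HSCs, against 27.04, 26.0 and 9.93 FPKM in young Ly-HSCs (1.11 ± 0.34, limma, adjusted p = 0.19; 0.66 without young Ly-HSC library 3). Pcgf1, a subunit of the PRC1 complex that Kdm2b brings to CpG islands, read 22.9, 6.57 and 7.96 FPKM in old My-HSCs, against 2.06, 0.036 and 1.14 FPKM in young My-HSCs (2.63 ± 0.94, limma, adjusted p = 0.509). Mphosph8, a reader of H3K9 methylation in the HUSH complex, had opposite differences in the subsets, with 70.9, 58.5 and 42.0 FPKM in old against 34.9, 48.8 and 47.2 FPKM in young Ly-HSCs, and 47.8, 46.4 and 44.7 FPKM in old against 65.6, 59.3 and 54.7 FPKM in young My-HSCs. Old and young libraries of Mphosph8 overlap in Ly-HSCs and lie apart in My-HSCs. Its interaction was -0.72 ± 0.31 (limma, adjusted p = 0.864), and ran from -0.93 to -0.36 over the 21 alternatives.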

How the data were processed

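RNA-seq libraries of sorted mouse HSCs were analysed from the authors' deposited table of FPKM per gene and library. The submitters' processing notes name STAR, DESeq2, bcl2fastq 2.17 and, as the build, GRCm38 (mm10). Which step each tool served, the annotation, and how reads with several matches were counted are points the sources used here do not give. Near-identical paralogs therefore have uncertain values. FPKM removes read totals, so depth is unknown: among low values, the commonest ratio between libraries held only 4.68% to 10.7% of genes, and relative depth could not be resolved. Precision therefore rests on the spread between libraries of the same group, pooled over the 4 groups in the model. The median standard error of members was thus 0.368 in each age comparison within a subset and each subset comparison within an age. The larger spread of young Ly-HSCs enters tests that do not hold them, and tests that hold them may look too precise.

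Values were taken as log2(FPKM + 1). Genes with FPKM of at least 1 in at least 3 libraries (10900 of 14143) entered 1 group-means model in limma 3.58.1 (R 4.3.3), with an intensity trend, 8 residual and 5.11 prior degrees of freedom. Tests were two-sided for 7 contrasts, with Benjamini-Hochberg adjustment over all genes tested and a threshold of 0.05. Members, role and partner lists and the genes named (the 4 members with the smallest p in each contrast, key members, the highest and lowest, and the 2 leading partners) were chosen with earlier results of these data known; genes named from counts of libraries that do not overlap follow from those counts.

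Old Ly-HSC and old My-HSC libraries of the same number deviated together (correlations of 0.256, 0.233 and 0.21 across genes), so the number was used as a block within each age as an alternative. Other alternatives changed the pseudocount (0.1), the filter, the scaling and the weights, and left out each library in turn. Gene identifiers were matched to GENCODE M21 (49 of 58 in the same version, 9 in another), and promoter windows come from RefSeq on GRCm38.p6.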

Additional observations from a re-analysis of the deposited data

Results flagged for a closer look

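The difference between the subsets ran one way in young mice and the other way in old mice, with no overlap of libraries at either age, in 3 of 57 members (5.26%), beside 53 of 10900 genes (0.486%). The members were chosen with earlier results known, so no test was made of that share. Kdm1a was lower in old My-HSCs than in old Ly-HSCs and higher in young My-HSCs than in young Ly-HSCs, with an interaction of -1.0951 (limma, adjusted p = 0.843). Kmt5c showed the same pattern, with an interaction of -1.1565 (limma, adjusted p = 0.838). In young mice the gaps were narrow. The lowest My-HSC and highest Ly-HSC libraries read 29.43 and 29.40 FPKM in Kdm1a, and 35.8 and 34.6 FPKM in Kmt5c. In old mice the highest My-HSC and lowest Ly-HSC libraries read 31.5 and 36.1 FPKM in Kdm1a, and 24.1 and 27.5 FPKM in Kmt5c. The count of 3 therefore depends on narrow gaps in young mice. Kdm2b had the pattern too. It read 14.2, 15.8 and 16.1 FPKM in old My-HSCs against 18.3, 18.7 and 17.9 FPKM in old Ly-HSCs. In young mice it read 18.0, 16.2 and 17.3 FPKM in My-HSCs against 14.7, 15.7 and 5.74 FPKM in Ly-HSCs, again with a narrow gap. In Kdm2b the age difference was also opposite in the subsets, with every old library above the young ones in Ly-HSCs and below them in My-HSCs, a pattern of 1 member (1.75%) and of 71 genes (0.651%). Both views are 1 interaction, of -0.8284 (limma, adjusted p = 0.904), which was -0.41 without young Ly-HSC library 3 and ran from -1.06 to -0.41 over the 21 alternatives. The interaction was tested for each of the 3 genes, and none passed.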

How the results depend on the processing

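The count of called members was 0 in all 7 contrasts under each change of pseudocount, filter, scaling and weights and with the block across all groups, and in the 3 subset contrasts and the interaction, the 4 for which it was run, with the block within each age. It moved only on leaving out young Ly-HSC library 2: over the libraries left out in turn it ran from 0 to 2 in the age comparison of Ly-HSCs, from 0 to 1 in young My-HSCs against Ly-HSCs and from 0 to 1 in the age comparison averaged over subsets. The genes were Kdm1a in all 3 and Setd4 in the first, and the cause was not tested. Of 1249 recomputed fold changes for 61 results on named genes, 1232 stayed on the same side of the threshold. A call was lost in 10 (all Mllt3) and gained in 7, and 0 changed direction. Only 1 of the 61 results, Mllt3 averaged over ages, was called at the start, and it lost the call in 10 of its 21 alternatives. Staying on the same side thus mostly meant staying uncalled, which says little about how firm a call is.

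With the replicate number as a block within each age, called members stayed at 0, and called genes of any kind numbered 17 in place of 45 (subsets, averaged over ages), 0 in place of 13 (subsets, young) and 0 in place of 3 (subsets, old). Young libraries of the same number did not deviate together (correlations of 0.002 to 0.048). With the number as a block across all 4 groups, called genes were 15 in place of 38 for age in Ly-HSCs and 9 in place of 23 for age in My-HSCs. Over the libraries left out in turn, called genes of any kind ran from 7 to 223 and from 0 to 36 in those comparisons, from 0 to 6 between subsets in old mice, from 0 to 299 between subsets in young mice, and from 42 to 197 and 14 to 111 in the averaged comparisons of age and subset. With pseudocount 0.1 the count for age in My-HSCs was 1, with no filter 56 and with 1 weight per group 71. The same weights gave 9 called genes in place of 38 for age in Ly-HSCs. Between subsets they gave 69 in place of 3 in old mice and 0 in place of 13 in young mice. Young Ly-HSCs had the largest spread and the most zeros of the 4 groups, so contrasts that hold them rest on the least precise values. Since depth is unknown, single FPKM values carry no counting interval.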
